A study of Mus musculus with 2254 samples.

Results

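Smooth muscle cells of the adult mouse brain with little Cnn1, the gene of the actin-binding protein calponin 1, were described across genes and across Notch3 status. They were chosen by thresholds on their own read counts, scaled so that each cell summed to 1000000 (CPM). A member had at least 1000 CPM of Acta2 and 500 CPM of Myh11, the actin and the myosin heavy chain of smooth muscle, and under 300 CPM of Cnn1. Its summed Rgs5 and Vtn, which mark pericytes and the mural cells next to them, lay below its Acta2. It had under 200 CPM of the endothelial genes Cldn5 and Pecam1 and under 50 CPM of the ependymal genes Ccdc153 and Tmem212. It also had under 50 CPM of Pappa2 and Dmp1 together, and under 50 CPM of Rarres1, Myl1 and Angpt4 together. Of the 2252 cells with at least 50000 counts among 2254 deposited, 353 were members. The 14 genes of the rule set who is a member, so their levels are given as a description and enter no count below.

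The members comprised 227 cells from mice labelled Notch3 KO and 126 cells from mice labelled Notch3 WT. All mice were C57BL/6 adults and carried SM22-Cre with Rosa26-stop-tdTomato, so the SM22 promoter, which is active in smooth muscle, turned on a red reporter in KO and WT alike. Single brain cells were sorted by fluorescence into 384-well plates and sequenced by Smart-seq2, which copies full-length polyadenylated RNA, and each deposited sample was 1 cell. The labels describe neither the sort gates nor the Notch3 allele, and they name no animal. KO cells stood on the plates numbered 043, 467 and 471 and WT cells on those numbered 044, 468 and 469. Each status therefore counted as 1 sample, no test between KO and WT was possible, and plates are shown only as a spread.

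Arterioles set the resistance of the brain's circulation, and their smooth muscle contracts when calcium enters through voltage-gated channels or leaves the sarcoplasmic reticulum. Potassium channels oppose that entry by holding the membrane polarised. Notch3 is a receptor of arterial smooth muscle and pericytes. When a neighbouring cell presents a ligand such as Jag1, its intracellular part is released and acts with the DNA-binding protein RBPJ on target genes, and NOTCH3 mutations cause the human small-vessel disease CADASIL.

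KO plates 043, 467 and 471 held 66, 89 and 72 members, and WT plates 044, 468 and 469 held 94, 14 and 18. That was 17.5%, 24.1% and 19.0% of the cells of the KO plates, against 24.8%, 3.74% and 4.83% of the WT plates. The low WT shares belonged to plates that held few smooth muscle cells of any kind. Among cells that passed the Acta2 and Myh11 thresholds, members made up 25.3%, 39.7% and 24.8% on the KO plates and 27.3%, 43.8% and 31.0% on the WT plates, and these ranges overlapped. Exact binomial 95% intervals, which cover counting error only, ran from 19.5% to 44.5% for WT plate 469. The median total per member was 234526, 246650 and 348574 counts on the KO plates and 253050, 245976 and 356072 on the WT plates. With 14 and 18 cells, WT plates 468 and 469 rarely registered a gene that few cells express, and this touches every list of genes higher in KO below.

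No gap separated the members from their neighbours on either side of the Cnn1 cut or of the Rgs5 plus Vtn cut. Cnn1 had no read in 246 of the 353 members, 168 of them KO and 78 WT. Just inside the Cnn1 cut, 37 members had 200 to 300 CPM, and just outside it 31 cells had 300 to 400 CPM. The ratio of Rgs5 plus Vtn to Acta2 had a median of 0.526 in KO and 0.449 in WT members. Between 0.8 and 1 lay 58 members, and between 1 and 1.2 lay 53 cells outside the rule. Cells that met the same rule but had 300 CPM or more of Cnn1, 330 in all, are called Cnn1-high below. Acta2-positive cells whose Rgs5 plus Vtn reached their Acta2, 315 in all, are called Rgs5-high.

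**Figure D1:**
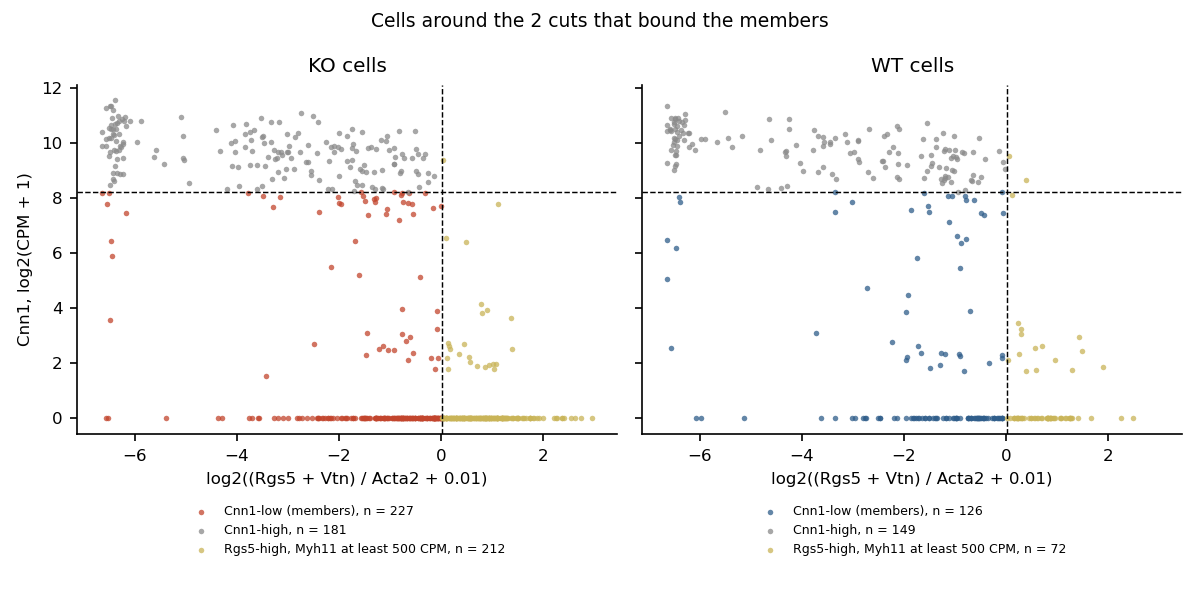
Each point is 1 cell, KO in the left panel and WT in the right, by its ratio of Rgs5 plus Vtn to Acta2 (x axis, log2 of the ratio plus 0.01) and its Cnn1 level (y axis, log2 of CPM plus 1), with dashed lines at the cuts of the rule. The 227 KO and 126 WT members (coloured) fill the lower left field, most of them at 0 reads of Cnn1, and meet the Rgs5-high cells on their right with no gap.

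The label calls these cells arteriolar, and 3 genes the rule did not use were given as markers for it. Pln, which encodes phospholamban, the brake on the calcium pump of the sarcoplasmic reticulum, had a read in 96.0% of KO and 99.2% of WT members. Map3k7cl, a kinase-like gene, had one in 74.4% of KO and 90.5% of WT members. Kcna5, the voltage-gated potassium channel Kv1.5, had one in 22.0% of KO and 41.3% of WT members. By plate these Kcna5 shares overlapped, from 7.58% to 30.6% in KO and from 22.2% to 44.7% in WT. In cells with at least 1000 CPM of Dcn, a fibroblast gene, and under 100 CPM of Acta2, called fibroblasts here, neither Kcna5 nor Map3k7cl had a read (0 of 73 KO cells, with an exact upper limit of 4.93%, and 0 of 29 WT cells, with one of 11.9%). The median total of these fibroblasts was 323245 counts in KO and 298834 in WT, and that of the members was 265504 in KO and 266173 in WT. At least 2 of the 3 markers were present in 292 members, 171 of them KO and 121 WT. Against Cnn1-high cells, the mean differences of all 3 markers were under 1, and only Map3k7cl was higher in members on every plate. Within plates, Pln differed by -0.11 on the log2(CPM + 1) scale, with plates from -0.42 to 0.19, and Kcna5 by 0.77, with plates from -0.25 to 1.44. Map3k7cl was 0.87 higher in members, with plates from 0.38 to 1.35. The data thus carry the smooth muscle part of the label more clearly than its arteriolar part, and the cells are called Cnn1-low smooth muscle cells here.

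Markers of other cell types were low in the members as sums over each list of CPM scaled by the plate's total alone. For the 8 endothelial genes the sums lay between 28.2 and 59.5 CPM in KO members, and between 15.4 and 29.7 CPM in WT members. For the 7 fibroblast genes they lay between 199 and 311 CPM in KO members, and between 141 and 217 CPM in WT members. Nearly all of that was Col1a2, while Dcn, which defines fibroblasts, was at 1.02 to 3.46 CPM on KO and 0.942 to 1.90 CPM on WT plates. Oligodendrocyte genes reached 52.9 to 157 CPM on KO and 4.68 to 122 CPM on WT plates, mostly as Mbp, and Mog was at 0 on the KO plates. The 9 pericyte genes, which include Rgs5 and Vtn, summed to 4441 to 5360 CPM on KO and 4128 to 4519 CPM on WT plates.

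Notch3 itself was lower in KO members on every plate. For this and all values below, counts of the members of a plate were summed and scaled to CPM with TMM factors, and a difference is the mean of log2(CPM + 1) on the KO plates less that on the WT plates. Notch3 stood at 58.5, 102 and 95.3 CPM on KO plates 043, 467 and 471, against 234, 677 and 1002 CPM on WT plates 044, 468 and 469. The highest KO plate lay below the lowest WT plate, and WT plate 044 lay well under the other WT plates. The difference was -2.69, with -1.98 between plates 043 and 044 and -3.05 among plates 467 to 471. Reads of Notch3 were still found in 70.0% of KO members and 91.3% of WT members, against 13.7% of KO and 24.1% of WT fibroblasts. The gene spans chr17:32120820-32166852 on the minus strand of GRCm38, and the antisense gene Gm17276 overlaps its exons. Gm17276 was lower by the same rule (-3.66), and because the strand setting of the counting is not given, reads of these overlapping genes cannot be told apart.

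Within the members, 7 of the 15 genes that varied most from cell to cell were on the list of immediate early and stress genes. For each of 6128 genes with at least 20 CPM on all 4 plates of at least 20 members, the coefficient of variation (CV) over cells was divided by the median CV of genes at a similar level. Egr1, a zinc-finger transcription factor induced within minutes of a stimulus, came first with a ratio of 2.60 and plates from 2.02 to 3.09. Fos, a subunit of the AP-1 transcription factor, followed with 2.28, although it had a read in 98.3% of members. The protease gene Adamts1 had 2.26, and the stress-induced transcription factor Atf3 had 2.06. Cyr61, Dusp1, Btg2, Thbs1, Nfkbiz, Igfbp4, Gem, Apold1 and Zfp36 ranged from 1.73 to 1.95. Rgs5 and Vtn were also among the leading 15, at 1.85 and 1.73. Because the rule bounds these genes, their spread is a description only. Of 25 immediate early and stress genes, 24 had a ratio above 1, with a median of 1.46, and Jund was lowest at 0.62. Of 30 contractile genes, leaving out those of the rule, 8 had a ratio above 1, with a median of 0.887 and a range from 0.40 to 1.15. Itga8, an integrin subunit, was highest, and Tagln (transgelin) had 0.71. Pln varied more than most genes of its level, with a ratio of 1.43.

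**Figure D2:**
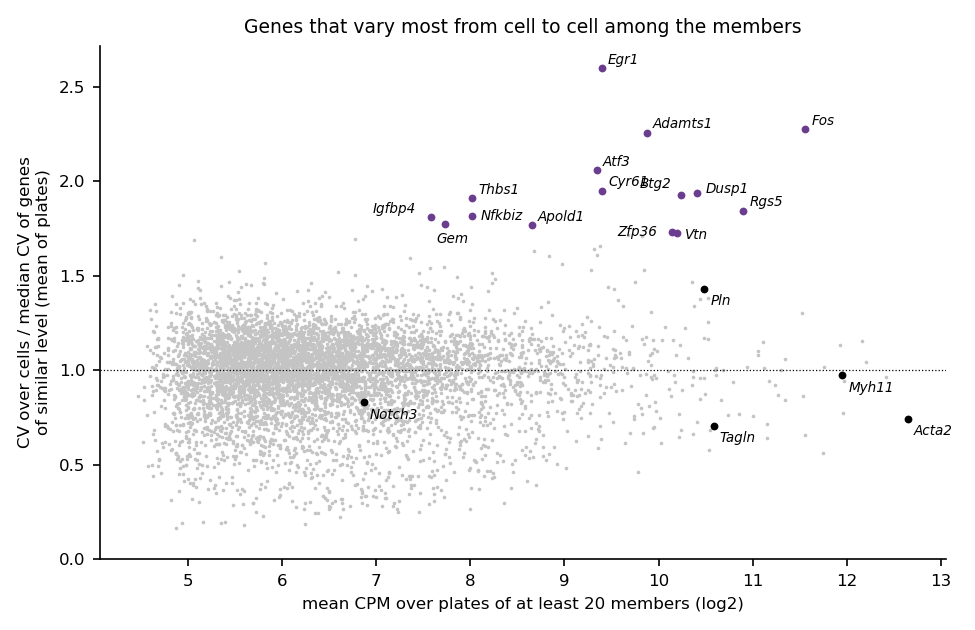
Each grey point is 1 of 6128 genes, by its mean CPM over 4 plates (x axis, log2) and its CV over members divided by the median CV of genes of similar level (y axis, mean of the plates). Purple points are the 15 highest genes, led by Egr1 at 2.60, and black points are smooth muscle genes, among which Tagln and Acta2 lie below 1.

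Between KO and WT members, several matrix genes, Fhl1, Fhl2, Nrp1 and Nrp2 were higher in KO, and Casq2, Kcna5, Notch3 and its target Nrarp were lower. A gene was called when its status means averaged at least 10 CPM, at least 10% of the members of KO or WT had a read, the difference was at least 1 on the log2 scale and no KO plate overlapped a WT plate. Of 9284 genes tested, 378 (4.07%) were called higher and 139 (1.5%) lower in KO members. The counts of each gene list below are to be read beside these shares of all genes. Plates did not overlap, at any size of difference, for 955 genes (10.3%). With 3 plates for each status, about that share of genes would separate in this way whatever the label. Plates that do not overlap are therefore a description only. The median difference over all tested genes was 0.18. Leaving out 1 plate loosens the demand that plates do not overlap and raised the counts, to 614 higher and 263 lower without KO plate 043, 1194 higher and 411 lower without WT plate 044, and 599 higher and 295 lower without WT plate 469. Without KO plate 471, 211 were lower, and without WT plate 468, 289. The counts rose most without WT plate 044, which leaves WT plates of 14 and 18 members. Many called genes were thinly expressed. With the filter raised to a read in at least 50% of the members of KO or WT, an alternative added after the data were seen, 42 were called higher and 19 lower of 2556 genes, and their median difference was 0.07. Taking the log2 ratio of the mean CPM over plates, also added later, gave 350 higher and 135 lower.

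The gene with the highest difference was Fhl2, a LIM-domain protein that binds transcription factors and integrins. It stood at 77.8, 59.5 and 69.0 CPM on the KO plates, against 0.0923, 0 and 0 CPM on the WT plates. All 3 KO plates were alike, and WT members held 2 reads of Fhl2 in all, against 4117 in KO members. Scaled to CPM over all members, the KO to WT ratio was 1121, with a 95% counting interval from 310.1 to 9258. That interval treats reads as independent although PCR copies them, so it can be too narrow. A read was present in 52 of 227 KO members (22.9%) and 2 of 126 WT members (1.59%), so most KO members had none. Fibroblasts carried Fhl2 in 89.0% of KO and 65.5% of WT cells. Fhl1, of the same family, was at 309, 175 and 168 CPM on KO plates and 47.2, 0.851 and 64.9 CPM on WT plates (difference 3.54). Fhl5, which is found in smooth muscle and testis, lay the other way at 34.9, 34.7 and 35.2 CPM in KO and 71.0, 55.1 and 89.7 CPM in WT plates, without reaching the size rule (-0.99).

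The lowest difference was that of Casq2, which encodes calsequestrin 2, the protein that holds calcium inside the sarcoplasmic reticulum. The gene stood at 0, 3.55 and 0.124 CPM on KO plates and 185, 237 and 115 CPM on the WT plates, a difference of -6.65. Every WT plate lay above every KO plate by a wide margin, between plates 043 and 044 (-7.54) and among plates 467 to 471 (-6.20). Reads were present in 5 of 227 KO members (2.20%) and 40 of 126 WT members (31.7%), and after thinning each cell to 50000 counts in 0.441% of KO and 27.8% of WT members. The pooled reads, 80 in KO and 5596 in WT members, put Casq2 at 1.32 CPM in KO and 169 CPM in WT members.

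The 250 bases before the start of Casq2, Kcna5, Nrarp and Fhl2 are shown for 4 genes called between KO and WT, from the calcium, potassium channel, Notch and Fhl lists. They come from RefSeq on GRCm38.p6, 5′ to 3′ on the strand of the gene. Capitals mark the RBPJ core letters TGGGAA, searched on both strands, and the CArG box, the motif bound by serum response factor in smooth muscle genes. The windows are chr3:102086165-102086414 (plus strand), chr6:126535556-126535805 (minus), chr2:25180508-25180757 (plus) and chr1:43196762-43197011 (minus, the first listed of 2 starts of Fhl2).
Casq2: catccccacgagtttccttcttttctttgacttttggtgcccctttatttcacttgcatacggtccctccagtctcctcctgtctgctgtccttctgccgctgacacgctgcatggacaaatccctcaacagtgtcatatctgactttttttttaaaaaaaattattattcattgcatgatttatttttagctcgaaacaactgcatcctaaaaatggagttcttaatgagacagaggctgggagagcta
Kcna5: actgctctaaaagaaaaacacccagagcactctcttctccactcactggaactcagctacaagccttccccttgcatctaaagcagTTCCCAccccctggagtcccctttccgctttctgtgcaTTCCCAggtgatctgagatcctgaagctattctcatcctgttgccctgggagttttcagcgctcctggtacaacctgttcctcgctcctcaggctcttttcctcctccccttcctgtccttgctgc
Nrarp: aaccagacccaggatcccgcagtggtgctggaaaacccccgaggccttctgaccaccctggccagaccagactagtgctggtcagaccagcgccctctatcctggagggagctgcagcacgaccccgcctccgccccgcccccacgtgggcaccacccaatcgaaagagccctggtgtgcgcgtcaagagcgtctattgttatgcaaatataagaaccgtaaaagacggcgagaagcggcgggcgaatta
Fhl2: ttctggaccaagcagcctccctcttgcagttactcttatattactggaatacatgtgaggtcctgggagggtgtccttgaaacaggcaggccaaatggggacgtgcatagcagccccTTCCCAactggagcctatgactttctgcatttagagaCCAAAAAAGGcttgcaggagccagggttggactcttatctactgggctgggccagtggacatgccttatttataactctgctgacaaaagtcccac
The RBPJ core letters occurred at 2 places before Kcna5, 164 and 126 bases before its start, and at 1 place before Fhl2, 133 bases before its start, while a CArG box lay 96 bases before the start of Fhl2. For Kcna5 these distances hold for the RefSeq start alone. The GENCODE annotation places that gene at chr6:126532551-126535412, and the bases after the RefSeq start were not found in its GENCODE transcripts. Neither motif was in the windows of Casq2 and Nrarp. The RBPJ letters were in 21.6% and the CArG box in 1.47% of all 32851 such windows. Of the genes with a window, 18.6% of those lower in KO, 24.1% of those higher in KO and 19.8% of all tested held the RBPJ letters, so the shares of called genes stood near that of all genes.

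Other genes much higher in KO members were Nrp2 and the matrix genes below. Nrp2, a co-receptor for class 3 semaphorins and VEGF, was at 18.6, 73.7 and 46.5 CPM in KO and 0.277, 2.55 and 0.154 CPM in WT plates (4.57). Its relative Nrp1 was at 311, 185 and 156 CPM in KO and 83.9, 15.6 and 68.0 CPM in WT plates (2.18). Of 5 semaphorin, plexin and neuropilin genes measured, these 2 were called. The transcriptional repressor Hic1 had 1286 reads in KO members and none in WT members. Against a floor of 3 reads over the WT members, Hic1 was at least 233-fold higher. That bound treats reads as independent although PCR copies them, so it can be too high, and it covers no spread between cells. Hic1 was called in 15 of the 22 alternatives it entered. Lamb1, the laminin beta 1 chain, had a difference of 4.28. Setd8, a histone H4 methyltransferase, differed by 4.27, and Fam101b, an actin regulator now named Rflnb, by 4.24. Fxyd6, a regulator of the sodium pump, differed by 4.09 and the heparan sulfate sulfatase Sulf1 by 3.82. Between plates 043 and 044, Sulf1 differed by only 0.90.

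Genes much lower in KO members were mostly found in a minority of cells. Ephx3, an epoxide hydrolase, was at 8.71, 0.738 and 5.84 CPM in KO and 68.1, 91.4 and 24.0 CPM in WT plates (-3.48). It lies 16.9 kilobases from Notch3 on chromosome 17, at chr17:32183770-32189549. Gbe1, the glycogen branching enzyme, differed by -3.15 and Atp13a5, a P5-type ATPase that marks brain pericytes, by -2.98. Trac, the constant segment of the T cell receptor alpha chain, was at 13.9, 6.41 and 0 CPM in KO and 36.0, 39.4 and 46.9 CPM in WT plates (-3.11), and what its reads come from in these cells was not tested. Ntf3, the growth factor neurotrophin 3, was at 9.92, 14.3 and 17.3 CPM in KO and 91.9, 181 and 33.9 CPM in WT plates, with reads in 5.73% of KO members and 32.5% of WT members. Sp6, a zinc-finger transcription factor whose exons overlap the antisense gene Gm11532, differed by -2.33. The nuclear receptor Nr6a1 differed by -2.73, the zinc-finger gene Zfp810 by -2.66 and Lcorl by -2.56. Between plates 043 and 044, Zfp810 differed by only -0.96.

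**Figure D3:**
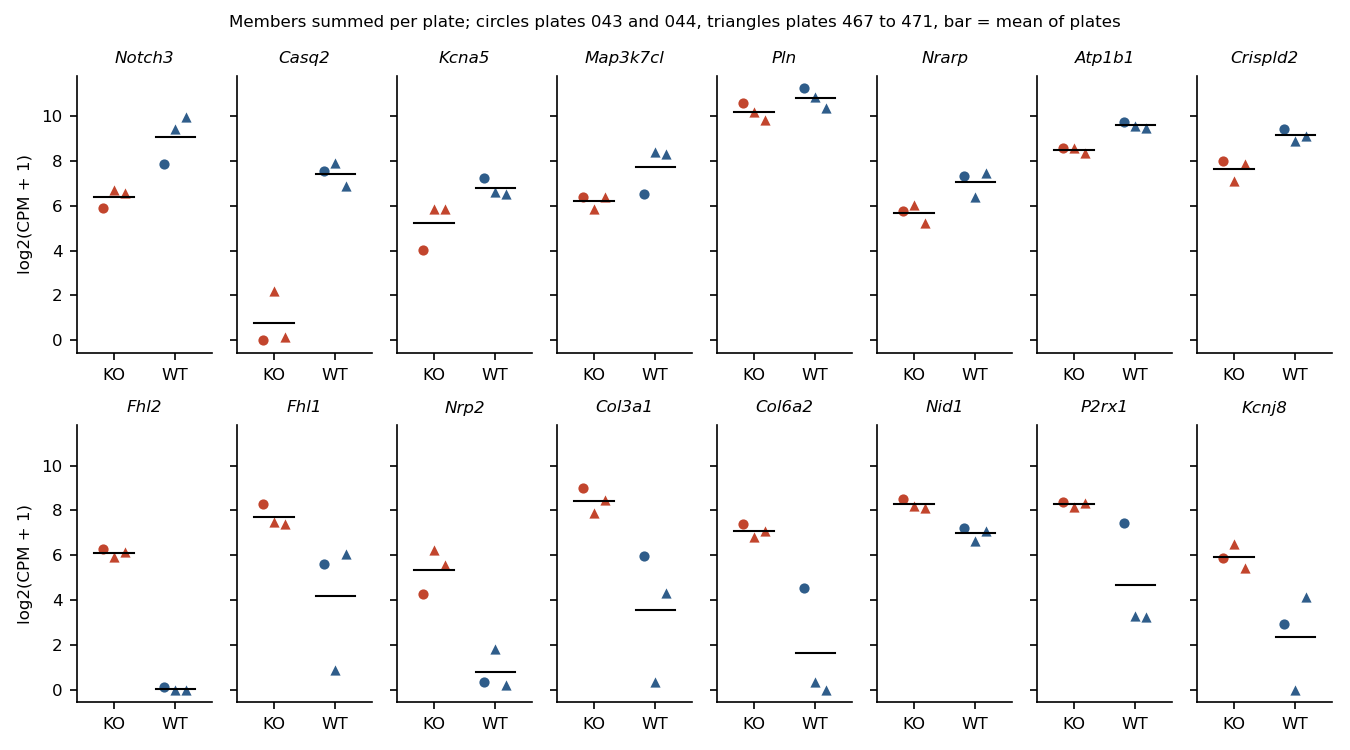
Summed level of the members of each plate for 16 genes (y axis, log2 of CPM plus 1), KO plates at the left and WT plates at the right of each panel; circles are plates 043 and 044, triangles plates 467 to 471, and bars the mean of the plates. Casq2 lies at 0 to 3.55 CPM on KO plates and above 100 CPM on every WT plate, Fhl2 lies the other way, and Pln overlaps.

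Of the label's 3 markers, Kcna5 and Map3k7cl were lower in KO members and Pln was not called. Kcna5 was at 15.6, 56.4 and 57.3 CPM on KO plates and 149, 98.2 and 92.5 CPM on WT plates (-1.55). The gap was -3.18 between plates 043 and 044 but only -0.73 among plates 467 to 471, under the size rule. Map3k7cl was at 83.0, 56.3 and 82.6 CPM on KO and 91.0, 331 and 312 CPM on WT plates (-1.52), but the gap between plates 043 and 044 was only -0.13. Pln was at 1536, 1155 and 907 CPM on KO and 2429, 1837 and 1296 CPM on WT plates, with plates that overlapped (-0.61), and its exons overlap the antisense genes Cep85l and Gm47644. Within the 10 potassium channel genes measured, 2 were called lower and 1 higher, and the median was -0.79 against 0.18 for all genes. Besides Kcna5, Kcnj12, the inward rectifier Kir2.2, was lower at 24.2, 27.8 and 22.3 CPM in KO and 50.1, 114 and 46.6 CPM in WT plates (-1.35). Kcnj8 was higher. It encodes the ATP-sensitive channel Kir6.1, typical of pericytes, and stood at 57.9, 90.8 and 42.2 CPM in KO and 6.60, 0 and 16.6 CPM in WT plates (3.59). Vtn, which the rule used, was also higher in KO members, at 1325, 1452 and 979 CPM against 807, 386 and 441 CPM in WT members. Abcc9, the partner subunit of Kcnj8, was too low to enter the size rule. Without TMM factors it was also higher on every KO plate, at 41.5, 2.24 and 11.8 CPM in KO and 0, 0.942 and 0.161 CPM in WT plates. The remaining genes of the pericyte list were not higher on every KO plate. Atp13a5 was called lower, as given above, and Rgs5 stood at 2040, 1731 and 1490 CPM in KO and 2361, 1800 and 1821 CPM in WT plates, which overlapped. Without TMM factors Rgs5 was lower on every KO plate, at 1880, 1785 and 1528 CPM in KO and 2158, 1992 and 1911 CPM in WT plates. Pdgfrb, the PDGF receptor of mural cells (0.22), Cspg4 (-0.02), Higd1b (0.32) and Ndufa4l2 (-1.04) had plates that overlapped. The part of pericyte genes in the other differences was not tested.

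Among 23 genes of calcium entry and storage, Casq2 and Cacna1g were called lower and Cacnb3 higher, with a median of -0.20. Cacna1g, the T-type channel Cav3.1, was at 1.54, 26.1 and 22.6 CPM in KO and 33.4, 45.1 and 86.8 CPM in WT plates (-2.14). Cacnb3, an auxiliary subunit of L-type channels, was at 64.0, 58.0 and 75.2 CPM in KO and 24.8, 22.7 and 14.5 CPM in WT plates (1.65). The pore of the L-type channel, Cacna1c, did not separate the plates, at 15.4, 211 and 183 CPM in KO and 52.7, 32.6 and 166 CPM in WT plates. Atp2a2, the calcium pump of the reticulum, was at 898, 1146 and 982 CPM in KO and 1105, 1145 and 1222 CPM in WT plates. Its plates overlapped (-0.20), unlike those of Casq2, whose product stores the calcium it pumps.

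In the Notch pathway, 2 of 13 measured genes were called, both lower. One was Notch3 and the other Nrarp, a target of Notch signalling whose protein limits the pathway. Nrarp was at 52.8, 64.1 and 36.3 CPM in KO and 161, 83.7 and 177 CPM in WT plates (-1.41), with -1.59 between plates 043 and 044 and -1.32 among the others. Gm38287, an antisense gene that overlaps it, cannot be told apart from it without the strand. Jag1, a ligand, was lower on every KO plate without reaching the size rule, at 234, 240 and 207 CPM in KO and 288, 477 and 318 CPM in WT plates (-0.63). The canonical targets Heyl (0.14), Hey2 (0.20) and Hes1 (-0.23) and the receptors Notch1 (-0.32) and Notch2 (-0.21) had plates that overlapped.

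Interstitial matrix was the list with most calls, 8 of 18 measured genes higher and none lower, and a median of 0.98. Col3a1, the fibrillar collagen III chain, was at 509, 233 and 350 CPM on KO plates and 62.5, 0.284 and 18.9 CPM on WT plates (4.88). Col6a2 was at 169, 111 and 133 CPM in KO and 22.3, 0.284 and 0 CPM in WT plates (5.46). Col6a1, which pairs with it in the microfibrils of collagen VI, was at 74.8, 29.4 and 92.8 CPM in KO and 9.60, 0 and 0 CPM in WT plates (4.77). The share of members with a read was 64.3% in KO and 24.6% in WT for Col3a1, and 21.1% in KO and 2.38% in WT for Col6a1. Col8a1 (3.33), Col5a1 (3.82), the crosslinking enzyme Loxl1 (2.65), fibronectin Fn1 (1.73) and Thbs1 (1.05), which encodes thrombospondin 1, were the other 5. Col5a1 differed by only 0.92 between plates 043 and 044, against 5.26 among plates 467 to 471. Elastin, Eln, was at 112, 117 and 201 CPM in KO and 96.6, 23.0 and 175 CPM in WT plates, which overlapped. Fibroblasts held Col6a1 in 97.3% of KO and 96.6% of WT cells. The fibroblast marker sums given above were higher on 2 of 3 KO plates than on any WT plate, Dcn stayed under 4 CPM throughout, and the part of fibroblast RNA in these differences was not tested.

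Of 18 basement membrane genes measured, 3 were called higher and none lower, with a median of 0.36. Nid1, the linker protein nidogen 1, was at 360, 292 and 277 CPM in KO and 146, 99.6 and 136 CPM in WT plates (1.29), and was one of the few called genes found in many members, 65.2% of KO and 42.9% of WT. Itga5, the fibronectin receptor subunit (3.77), and Lamb1 were the others. Itga5 differed by 1.03 between plates 043 and 044, against 5.14 among plates 467 to 471. The main collagen IV chain Col4a1 did not separate the plates, at 334, 492 and 632 CPM in KO and 433, 576 and 541 CPM in WT plates.

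No gene of the contractile apparatus met the size rule, 0 of 31 measured, and the median was 0.07. Of all tested genes, 4.07% were called higher and 1.5% lower, so a list of this length can hold no call, and that count alone says little. Tagln was at 1618, 1423 and 1489 CPM in KO and 1720, 1913 and 1915 CPM in WT plates (-0.29), so its plates stood apart by a small step. Myl9, the regulatory light chain (0.07), Mylk, its kinase (-0.08), and Des, the intermediate filament desmin (0.17), had plates that overlapped. Cnn3 was at 1047, 716 and 836 CPM in KO and 672, 266 and 505 CPM in WT plates, a difference of 0.93 with no overlap. The largest values belonged to Actg2, the enteric smooth muscle actin (2.47), and Svil, supervillin (1.66), whose plates overlapped. Actg2 turned to -0.93 on plates 043 and 044 alone.

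Of the remaining lists, P2rx1 was the call among 19 vasoactive receptor and cyclic GMP genes. This ATP-gated cation channel was at 327, 284 and 324 CPM in KO and 172, 8.80 and 8.46 CPM in WT plates (3.63). Its difference was only 0.92 between plates 043 and 044, against 4.98 among plates 467 to 471. Among 20 PDGF, TGF-beta and BMP genes, Bmp2 (1.54) and Tgfbr1 (1.29), a ligand and a receptor, were higher. The 26 immediate early and stress genes held 1 call, the chaperone Hsph1 (2.12), and a median of 0.13. Oxidative phosphorylation had 1 call of 35, Cox4i2, an isoform of cytochrome oxidase subunit 4 known from hypoxia responses, at 19.8, 56.4 and 39.8 CPM in KO and 71.7, 63.9 and 97.2 CPM in WT plates (-1.08). Cyp51, of sterol synthesis (-1.06), and Creld2, of endoplasmic reticulum stress (2.01), were the single calls of their lists of 17 and 14. Between plates 043 and 044 alone, Creld2 differed by 0.45 and Hsph1 by 0.99. Of 25 mural transcription regulators, Hic1 was called. Chemokines and inflammation (10 measured), glycolysis (16), G protein signalling regulators (6) and large artery genes (4) held no call. With 4.07% of all tested genes called higher and 1.5% lower, lists of these lengths with 1 call or none do not stand apart from all genes.

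**Figure D4:**
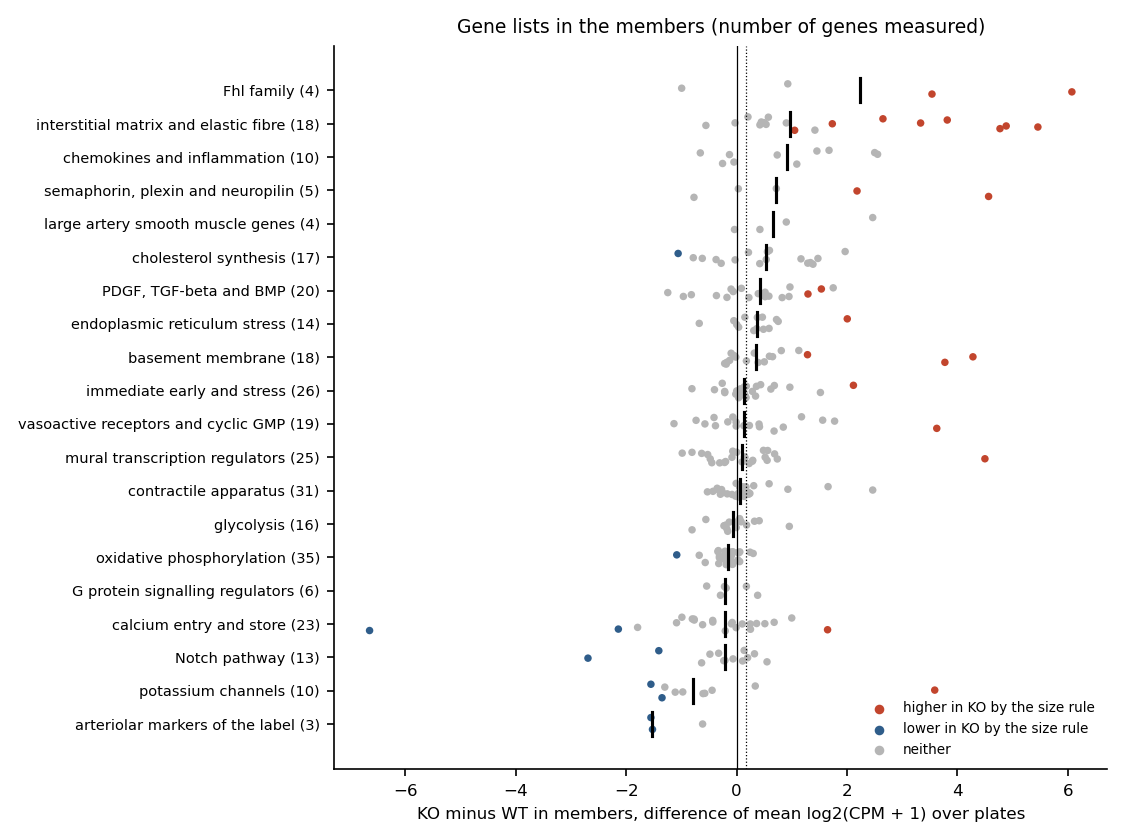
Each point is 1 measured gene of a list, by KO minus WT in the members (x axis, difference of mean log2(CPM + 1) over plates), red where called higher, blue where called lower and grey otherwise; black bars are list medians and the dotted line is the median of all tested genes, 0.18. Matrix genes spread to the right, and Casq2 stands alone at the far left.

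Some called genes were found in most members, and these were picked out after their values were seen. Atp1b1, a beta subunit of the sodium pump, was at 383, 375 and 324 CPM in KO and 863, 757 and 712 CPM in WT plates (-1.10), with a read in 80.2% of KO and 98.4% of WT members. Crispld2, a secreted protein, was at 251, 136 and 233 CPM in KO and 681, 467 and 556 CPM in WT plates (-1.49). Trim2, a ubiquitin ligase, was at 63.8, 106 and 94.1 CPM in KO and 130.2, 187 and 384 CPM in WT plates (-1.29). In each of the 3 every KO plate lay below every WT plate, and the WT plates of Trim2 were spread most. Among the genes higher in KO, Uaca was at 317, 264 and 277 CPM in KO and 129, 95.9 and 116 CPM in WT plates (1.33). Tpm4, a cytoskeletal tropomyosin, was at 418, 334 and 392 CPM in KO and 197, 181 and 152 CPM in WT plates (1.11). Fxyd5, another regulator of the sodium pump, was at 234, 249.9 and 217 CPM in KO and 85.3, 60.2 and 93.1 CPM in WT plates (1.56). Arhgdib differed by 1.23 and Nes, the intermediate filament nestin, by 1.70.

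Set against Cnn1-high cells of the same plate, the Cnn1-low cells were lower in 6 interstitial matrix genes, in Actg2 and in Ryr2, and higher in Trib2, Lamc3 and Nrarp. A gene was called here when the mean difference was at least 1 and its sign the same on all 6 plates, and because the same counts cut the populations, no test is given. Of 10426 genes, 170 (1.63%) were called higher and 138 (1.32%) lower in Cnn1-low cells. Fewer plates make 1 sign easier to keep, and the counts were 224 lower without KO plate 043, 226 lower without KO plate 467, 275 higher without KO plate 471 and 271 higher without WT plate 044. Actg2 averaged 12.5 CPM in Cnn1-low and 253 CPM in Cnn1-high cells, the lowest difference (-5.09, plates from -7.85 to -2.71). Cbr2, a carbonyl reductase, averaged 3.51 CPM in Cnn1-low and 73.4 CPM in Cnn1-high cells. Adam33, a metalloprotease (-4.05), Fam129a (-3.69), Bdh1, of ketone body metabolism (-3.66), the potassium channel Kcnh2 (-3.48) and the cadherin Cdh13 (-3.40) came next. Fn1 averaged 16.7 CPM in Cnn1-low and 120 CPM in Cnn1-high cells, and Eln 121 CPM in Cnn1-low and 313 CPM in Cnn1-high cells. With Col3a1, Col5a1, Col8a1 and Loxl1 they made 6 of 22 matrix genes lower in Cnn1-low cells, with a list median of -0.90 against 0.02 for all genes. Ryr2, the calcium release channel of the reticulum, averaged 35.0 CPM in Cnn1-low and 129 CPM in Cnn1-high cells (-2.06, plates from -2.87 to -1.60).

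On the higher side, Trib2, a pseudokinase, averaged 33.3 CPM in Cnn1-low and 2.05 CPM in Cnn1-high cells (4.05). Trib2 was higher still in Rgs5-high cells on every plate with at least 10 cells of both. On KO plate 043 it stood at 79.9 CPM in Rgs5-high and 14.8 CPM in Cnn1-low cells. Lamc3, the laminin gamma 3 chain, averaged 93.9 CPM in Cnn1-low and 20.4 CPM in Cnn1-high cells (3.28). The carboxypeptidase Cpm (3.90), the carbonic anhydrase Car4 (3.69), the phosphodiesterase Pde4c (3.66), Tnfrsf21 (3.45) and the metal transporter Slc30a10 (3.27) were also called higher. Cacna1d, the L-type channel Cav1.3, averaged 24.0 CPM in Cnn1-low and 2.53 CPM in Cnn1-high cells. Of 31 contractile genes, Actg2 and Svil were called, and Acta2 itself differed by -0.06.

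Against Rgs5-high cells, on the 5 plates with at least 10 cells of both, 207 of 10581 genes (1.96%) were called higher and 271 (2.56%) lower in Cnn1-low cells. The higher count was 332 without KO plate 043, 348 without KO plate 467, 326 without KO plate 471 and 335 without WT plate 044. Both genes of the ATP-sensitive potassium channel of pericytes were lower, with Kcnj8 at 42.8 CPM in Cnn1-low and 197 CPM in Rgs5-high cells, and Abcc9, its partner subunit, at 11.8 CPM in Cnn1-low and 79.0 CPM in Rgs5-high cells. Kcnma1, the large-conductance calcium-activated channel, lay the other way, at 37.4 CPM in Cnn1-low and 7.72 CPM in Rgs5-high cells (2.49, plates from 1.70 to 3.42). Cnn1-high cells held more Kcnma1 than Cnn1-low cells on all plates but WT plate 468. That plate had 67.5 CPM in Cnn1-high and 125 CPM in Cnn1-low cells, against 108 and 19.6 CPM on KO plate 043. The lowest differences were those of Car4 (-4.49), the PACAP receptor Adcyap1r1 (-4.31), Aldh1a1 (-3.97), Col1a1 (-3.64), the transporter Slc6a20a (-3.62) and Lum (-3.59). Col1a1 and Lum are also expressed by fibroblasts, neither rule excludes fibroblasts, and their part in these values was not tested. Efhd1, a mitochondrial calcium-binding protein, led the higher genes at 96.9 CPM in Cnn1-low and 16.4 CPM in Rgs5-high cells (3.91). Rnf122 (3.29), Pdgfc, a PDGF ligand (2.71), Sema3b (2.68), Gdf15 (2.62) and Npnt, the integrin ligand nephronectin (2.62), were also among them. Of 26 immediate early and stress genes, 5 were called higher, namely Fosl2, Atf3, Btg2, Klf4 and Gadd45b, and the list median was 0.78 against 0.04 for all genes. The contractile list had a median of 0.48, with Synpo2 and Itga8 called. Lamc3 averaged 94.6 CPM in Cnn1-low and 270 CPM in Rgs5-high cells, so it was lowest in Cnn1-high cells, intermediate in Cnn1-low cells and highest in Rgs5-high cells.

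**Figure D5:**
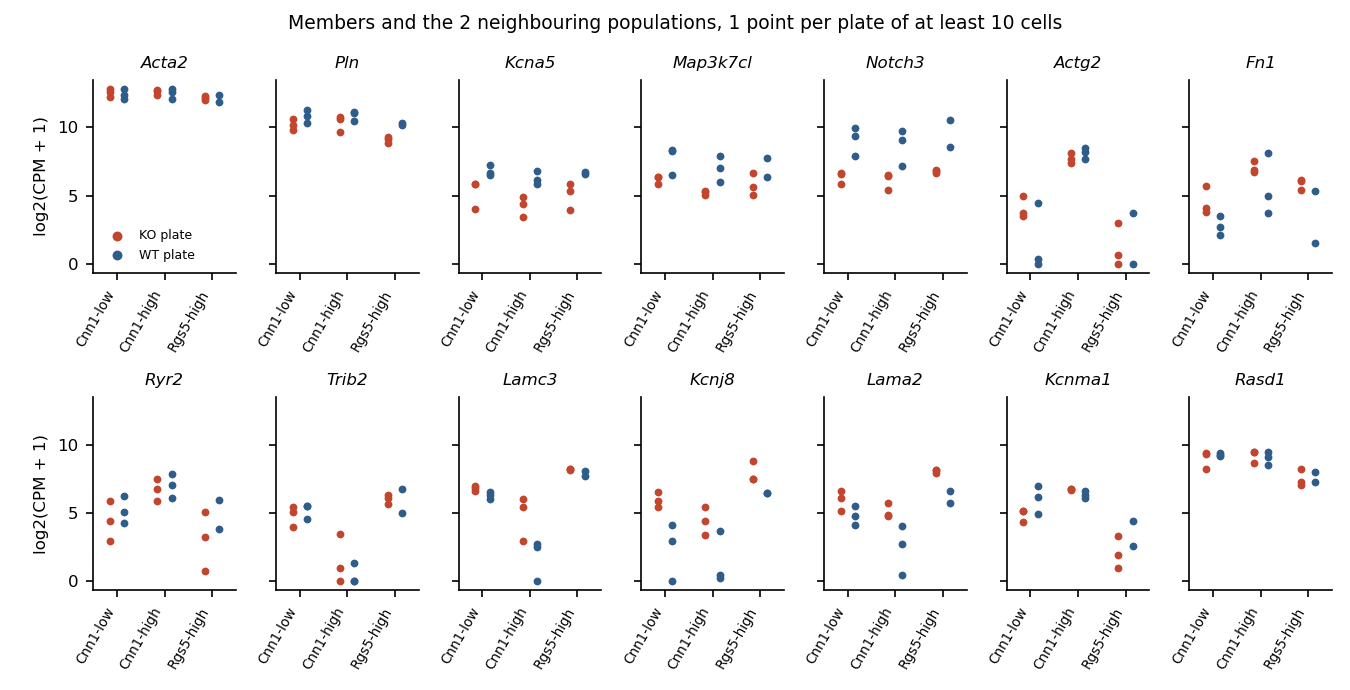
Summed level per plate (y axis, log2 of CPM plus 1) of 14 genes in Cnn1-low, Cnn1-high and Rgs5-high cells, with KO plates in red at the left and WT plates in blue at the right of each pair; a plate is drawn where it has at least 10 cells. Actg2 and Ryr2 are highest in Cnn1-high cells on every plate, Kcnj8, Lama2, Lamc3 and Trib2 in Rgs5-high cells, and Notch3 is lower in KO in all 3 populations.

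The differences between KO and WT were computed in the neighbours by the same rule, and whether they differ between populations was not tested. Notch3 differed by -2.69 in Cnn1-low, -2.56 in Cnn1-high and -2.76 in Rgs5-high cells. Casq2 differed by -6.65 in Cnn1-low, -4.97 in Cnn1-high and -2.23 in Rgs5-high cells, and Fhl2 by 6.07 in Cnn1-low, 3.38 in Cnn1-high and 5.22 in Rgs5-high cells. For Nrarp the differences were -1.41 in Cnn1-low, -2.53 in Cnn1-high and -1.44 in Rgs5-high cells. All 3 of these genes had the same sign in the 3 populations. Setd8 differed by 4.27 in Cnn1-low cells but by 0.17 in Cnn1-high and -0.71 in Rgs5-high cells, and Gbe1 by -3.15 in Cnn1-low but by 2.13 in Cnn1-high and 2.23 in Rgs5-high cells. In Cnn1-high cells, 359 of 9286 genes tested were called higher and 122 lower. Of the 378 genes higher in Cnn1-low cells, 51 were among those 359, which is 13.5% of the Cnn1-low and 14.2% of the Cnn1-high list. Of the 139 lower genes, 17 were among the 122 lower in Cnn1-high cells, which is 12.2% of the Cnn1-low and 13.9% of the Cnn1-high list. In Rgs5-high cells, 658 of 9431 genes tested were called higher and 353 lower. These held 86 of the genes higher in Cnn1-low cells (22.8%) and 37 of the lower ones (26.6%). Cells of the populations share plates and, for all the labels say, animals, so these are descriptions of the same libraries.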

How the data were processed

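Counts per gene and cell are the values the authors deposited, 1 column a cell. Per the submitters' processing notes, the tools were TopHat2 2.1.1, SAMtools 0.1.18 and featureCounts from Subread 1.4.6-p5, with the GRCm38 (mm10) genome, while the strand setting used in counting was not given in the sources used here. Members, gene lists and rules were chosen with earlier results of these data known.

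Cells with under 50000 counts were left out, and no doublet caller was run. Each cell's status came from its label and its plate from its name. Counts of the members of a plate were summed, scaled to CPM with TMM factors (edgeR 4.0.16 in R 4.3.3) and taken as log2(CPM + 1), which understates changes of low genes. The edgeR tests were not used: with no animal named, KO and WT are 1 sample each, so no p-value is given. Plates with under 10 cells of a population were dropped for it, which left WT plate 468 out of the comparison with Rgs5-high cells. Genes called between KO and WT needed 10 CPM, a read in 10% of the cells and a difference of 1 on the log2 scale. Between populations, the difference was taken within each plate, had to keep 1 sign on all of them and had to average at least 1. There the gene needed 10 CPM in the higher population, with no demand on the share of cells with a read.

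The genes named are Notch3, the genes of the rule, the 12 highest and 12 lowest called genes of each comparison, up to 4 genes of each list, the 15 most variable genes and the label's markers; others were chosen after their values were seen. A few genes that meet this rule are not reported here. Intervals are exact (Clopper-Pearson) at 95% and, like the floor of 3 counts over a group, cover at most counting error. Those on reads treat each read as independent. Reads copied by PCR carry no molecular identifiers, so intervals on reads can be too narrow. Shares were also computed after thinning each cell to 50000 counts. The steps were tested on simulated data. Alternatives included DESeq2 1.42.0 size factors, no factor, other thresholds of the rule and plates left out.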

Additional observations from a re-analysis of the deposited data

How the results depend on the processing

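Of 41 called genes named by the rule, 39 kept their sign in every alternative they entered. Col3a1, Fhl1 and Nrarp were called in all 23 alternatives. Another 13, among them Casq2, Fhl2, Col6a1, Col6a2, Kcnj8 and Cacnb3, were called in 22 and did not enter the filter on 50% of cells. Notch3 stayed lower in KO throughout, from -3.30 to -1.48. Scaling without TMM factors put the median of all genes at 0.14 and DESeq2 size factors at 0.08, against 0.18. Leaving out 1 plate gave 464 to 1194 genes higher and 201 to 411 lower in KO members. In the comparison with Cnn1-high cells it gave 223 to 275 higher and 175 to 226 lower, and with Rgs5-high cells 206 to 348 higher and 333 to 403 lower. With no filter, 852 genes were higher and 224 lower in KO. With at least 20 members per plate, which leaves WT plate 044 alone, 548 were higher and 578 lower. Plates 043 and 044 alone gave 739 higher and 719 lower, plates 467 to 471 alone 1328 higher and 443 lower, and members with Rgs5 plus Vtn under 0.5 times Acta2 gave 766 higher and 1091 lower. That cut leaves 8 members each on WT plates 468 and 469, so WT is plate 044 alone there. Where WT was plate 044 alone, higher genes did not clearly outnumber lower ones. Without plate 044, which leaves WT plates of 14 and 18 members, they did, at 1194 higher and 411 lower. A read in at least 50% of cells left 42 higher and 19 lower. That filter and the ratio of mean CPM were chosen after seeing the data. KO plates alone gave 384 higher and 329 lower than Cnn1-high cells and 503 lower than Rgs5-high cells. WT plates alone gave 795 higher and 685 lower than Cnn1-high cells, and 1263 higher and 1153 lower than Rgs5-high cells. Fewer plates make both rules easier to meet by construction; the cause of the other shifts was not tested.

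Among called genes, the direction turned for Creld2 (-0.18) with the tighter Rgs5 plus Vtn cut and for Lcorl (0.68) without the 25% of members highest in immediate early genes. Of 50 named genes that were not called, 28 changed sign in at least 1 alternative. Of these, the opposite direction met the size rule for Sema3f, at -1.33 with at least 20 members per plate, -2.20 on plates 043 and 044 and -1.83 with the tighter cut, and for Cxcl1 (-4.69) and Aldoc (1.22) on plates 043 and 044. No paired analysis was possible because the labels name no animal and KO and WT plates share no number.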
